A study of Rattus norvegicus with 90 samples.

Results

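The low-dose response of the rat kidney was described from 20 whole-kidney RNA-seq samples, chosen by their labels from the 90 samples of the series. They were 10 samples from rats given thioacetamide at 25 mg/kg, 5 collected 8 h and 5 collected 24 h after exposure, and 10 samples from rats given vehicle (3 ml/kg of saline), 5 at each time. The animals were male Sprague-Dawley rats of 10 weeks with a jugular catheter, each given a single intraperitoneal injection, and kidney, liver, and heart came from the same rats. All rats went without food for the 8 h before collection, but those of the 24 h groups had eaten after the injection and those of the 8 h groups had not. The 8 h groups were injected in the morning and the 24 h groups in the late afternoon. Time after exposure, food after the injection, and the hour of the injection therefore cannot be told apart. Low-dose and vehicle rats of the same time shared the schedule. Each kidney was powdered whole, so fewer cells of a type and less RNA per cell cannot be told apart in these values.

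Thioacetamide becomes toxic when it is oxidized, mainly in the liver, to reactive sulfoxides that bind to proteins and lipids. The liver is its best-known target, where cells around the central vein die. The kidney also contains enzymes that can oxidize the compound, and its tubules, which recover water, salts, glucose, and amino acids from the filtrate, receive metabolites that arrive in the blood. The deposited tables list transcripts by Ensembl identifier and do not pair them with gene names, so the response is described by transcripts, their abundance, and the organs in which they are found.

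The 20 libraries were checked for transcripts of the other organs. Transcripts were called restricted to an organ if their mean was at least 100 TPM in its vehicle samples and no more than 1% of that mean in the vehicle samples of each of the other organs, where TPM is an abundance scaled by transcript length and library. All 20 libraries carried the 64 kidney-restricted transcripts, at a summed level of 30972 to 56772 TPM. The 179 liver-restricted transcripts summed to between 171 and 935 TPM in 19 libraries and to 14994 TPM in replicate 3 of the low-dose 24 h group, which is 4.68% of their sum in the liver. The 57 heart-restricted transcripts summed to between 26.7 and 309 TPM. Their highest sum was in replicate 5 of the low-dose 24 h group and the next in replicate 3 of that group (139 TPM). By the liver-restricted sum, replicate 3 of the low-dose 24 h group stood apart from its group. The main counts of calls, the pooled effects of the named transcripts, and their comparisons with the other organs are given with and without it. At 24 h, the kidney-restricted sum was lower in all 5 low-dose samples (32316 to 34522 TPM) than in all 5 vehicle samples (36000 to 56772 TPM), whereas the groups overlapped at 8 h (36664 to 45035 TPM against 30972 to 54966 TPM). Over both times, its difference did not pass an exact two-sided permutation test within times (p = 0.0525, adjusted p = 0.242 over 7 library checks). The list was chosen by the level in these same vehicle kidney samples, which favours a higher sum with vehicle, so the sums are given as a description.

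**Figure D1:**
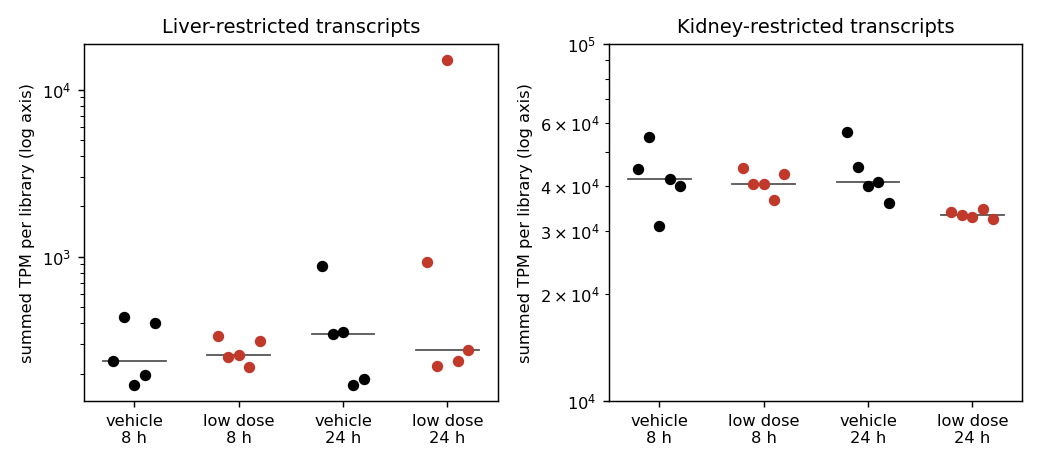
Summed TPM (log axis) of the 179 liver-restricted transcripts (left) and the 64 kidney-restricted transcripts (right) in each kidney library, with vehicle in black, low dose in red, and the group median as a line. In the left panel, replicate 3 of the low-dose 24 h group lies at 14994 TPM and the other 19 libraries between 171 and 935 TPM.

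The estimated counts of a kidney library summed to between 16919321 and 30292593. Between 7.22% and 19.5% of a library's counts were on genomic intervals that the deposited tables list beside the transcripts, and this share averaged 10.6% ± 3.09 (SD, n = 10) with the low dose and 13.8% ± 4.12 (SD, n = 10) with vehicle. The difference did not pass the exact permutation test (p = 0.0692, adjusted p = 0.242) but did at an unadjusted p of 0.0265 in the 16 libraries numbered up to 90 (8 low dose, 8 vehicle). Library numbers above 90 fell on 1 sample of 5 in each group. With the interval share as a covariate, the comparison below called 52 rises and 49 falls in place of 61 and 70, and all 4 transcripts named below were still called. At these depths, the median standard error of a log2 fold change was 0.12 among transcripts that averaged 1 CPM or more (library-scaled counts, not divided by length).

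In a pooled comparison of the low-dose and vehicle samples, with time and library number as covariates, 131 of the 20549 transcripts tested (0.638%) were differentially expressed where a call needed an adjusted p of up to 0.01 together with a change of at least 0.60 in either direction on the natural-log scale (0.866 on the log2 scale). Of these, 61 rose (0.297% of those tested) and 70 fell (0.341%). The rises were between 0.90 and 4.29 on the log2 scale with a median of 1.29, and the falls between -0.87 and -3.27 with a median of -1.17. Fold changes of at least 2 in absolute log2 value were found for 14 of the rises and 5 of the falls. Most changes were smaller, with 15 rises and 21 falls under 1 on that scale. Without the limit on the fold change, 694 transcripts passed (3.38%), 417 upward and 277 downward. Without replicate 2 of the low-dose 24 h group, 46 falls were called in place of 70.

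Without replicate 3 of the low-dose 24 h group, 51 of 20438 transcripts were called as rises and 57 as falls. All 51 of these rises and 53 of these falls were also called with that library in, so that 10 rises and 17 falls were lost and 4 calls were new. All 61 rises and 70 falls called with it kept their direction without it, with medians of 1.29 and -1.17. The liver-restricted transcripts were a group that the library did move. Among the 141 of them that were tested, the median log2 fold change was 1.49 with it, and over the 125 tested without it the median was -0.34. Of the 141, 1 was called, the transcript ENSRNOT00000034784 described below. Among the 39 heart-restricted transcripts tested, 1 was called as a rise and 1 as a fall, and the fall was not called without that library.

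**Figure D2:**
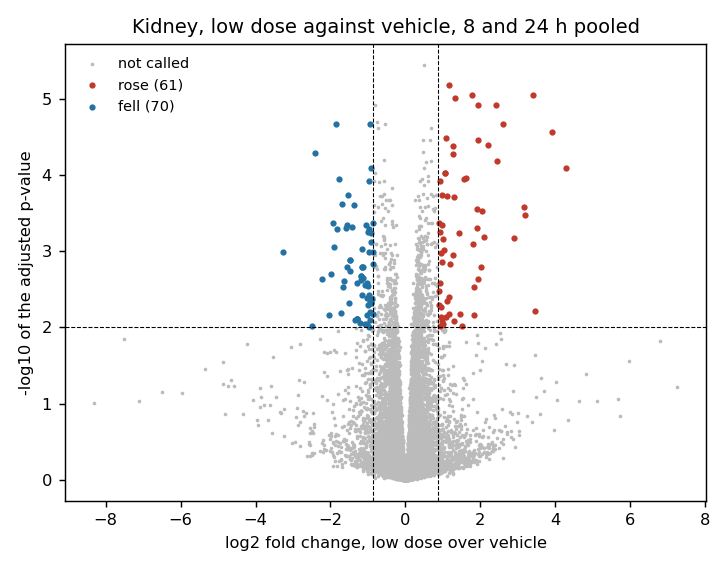
Each point is 1 of the 20549 transcripts tested, placed by its log2 fold change of low dose over vehicle and by the negative log10 of its adjusted p-value, with the 2 call thresholds as dashed lines. The 61 called rises (red) reach 4.29 and the 70 called falls (blue) reach -3.27.

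Levels in the vehicle kidney are given as a description, since they enter the fold change that sorted the transcripts into rises and falls. The median vehicle level of the rises was 2.54 TPM, against 7.70 TPM for the transcripts that fell and 4.86 TPM over all those tested. With the low dose, the median level of the rising transcripts was 9.77 TPM and that of the falling ones 3.24 TPM. Of the 61 rises, 15 (24.6%) were under 1 TPM with vehicle, similar to the 22.2% of all those tested, and 3 (4.92%) were at 50 TPM or more. Of the 70 falls, 6 (8.57%) were under 1 TPM and 15 (21.4%) at 50 TPM or more, where 9.62% of those tested lay. Without the library that stood apart, the median vehicle level was 3.04 TPM for the 51 rises and 4.55 TPM for the 57 falls then called, so the level of the falls depended on it. Among the 1021 transcripts at 100 TPM or more, 1 rose and 6 fell.

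The called transcripts also differed in the organ where they are most abundant without treatment. Of the transcripts that fell, 54 of 70 (77.1%) had their highest vehicle level in the kidney, against 58.6% of all those tested, a share that the choice of falls by the kidney difference favours. Of the 64 kidney-restricted transcripts, whose sum was lower at 24 h as given above, 1 was called as a fall, and their median log2 fold change was -0.20. Their choice by the vehicle kidney level favours a negative value. Of the called transcripts that rose, 29 of 61 (47.5%) were highest in the kidney, 19 (31.1%) in the liver, and 13 (21.3%) in the heart, against 11.5% for the liver and 29.9% for the heart among all those tested. The choice of rises by the kidney difference favours a low vehicle kidney level, and so a highest level in another organ. Without the library that stood apart, 16 of the 51 rises still called were highest in the liver. Median transcript lengths were 1984 bases for the rises, 1732 for the falls, and 2100 for all those tested. Some identifiers were not separate measurements, since 8 of the falling transcripts shared all their counts with another (3 sets), leaving 65 distinct count profiles among the 70.

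Transcripts are named here if they were called, averaged 2 CPM or more, had low-dose and vehicle samples that did not overlap at either time, and were among the 2 largest rises or 2 largest falls that met these conditions. The largest such rise was that of ENSRNOT00000034784, of 1808 bases. Values are given in CPM, in replicate order. At 8 h, its levels were 0.699, 1.07, 0.0523, 0.157, and 0.645 CPM with vehicle and 5.77, 8.22, 9.48, 6.40, and 13 CPM with the low dose. At 24 h, they were 1.47, 0.391, 0.110, 0.272, and 0.366 CPM with vehicle and 10.6, 8.48, 33.9, 7.40, and 2.67 CPM with the low dose. Every low-dose sample was above every vehicle sample, and the highest low-dose value was that of replicate 3 at 24 h, the library with the high liver-restricted sum. The highest vehicle value at 24 h was that of replicate 1, whose liver-restricted sum of 880 TPM was the highest among the vehicle libraries. Its log2 fold change was 4.29 (SE 0.52, 95% interval 3.20 to 5.38, adjusted p = 8.14e-05), and 3.90 without replicate 3 of the low-dose 24 h group. The transcript is 1 of the 179 liver-restricted ones, with a mean of 223 ± 59.6 TPM (SD, n = 9) in the vehicle liver and 0.304 ± 0.272 TPM (SD, n = 10) in the vehicle kidney. It averaged 7.08 ± 6.12 TPM (SD, n = 10) in the low-dose kidney.

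The second was ENSRNOT00000004780, of 1761 bases, which rose from a higher level. Its values are given in TPM, to set them beside the liver. At 8 h, it was at 16.4, 23.3, 9.26, 15.9, and 27.5 TPM with vehicle and at 150.5, 237, 72.2, 120.5, and 201 TPM with the low dose. At 24 h, it was at 16.5, 7.72, 27.02, 5.81, and 28.5 TPM with vehicle and at 543, 756, 959, 371, and 241 TPM with the low dose. The groups did not overlap at either time, and all low-dose samples at 24 h were above all those at 8 h. The pooled log2 fold change was 3.92 (SE 0.43, adjusted p = 2.71e-05), and 3.76 without the library that stood apart. Its mean went from 17.8 ± 8.49 TPM to 365 ± 296 TPM (SD, n = 10 each) in the kidney, beside a level of 313 ± 184 TPM (SD, n = 9) in the vehicle liver.

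The largest such fall was that of ENSRNOT00000016749, of 4163 bases, which was scarce in all 3 organs. At 8 h, it was at 5.11, 3.87, 2.93, 5.98, and 4.91 CPM with vehicle and at 1.37, 0.548, 1.06, 1.03, and 1.58 CPM with the low dose. At 24 h, the values were 5.77, 2.65, 3.07, 5.18, and 3.84 CPM with vehicle and 0.684, 0.242, 0.278, 0.653, and 1.20 CPM with the low dose. Every low-dose sample was below every vehicle sample, although the low-dose libraries at 24 h rest on only 4 to 18 counts each. The log2 fold change was -2.42 (SE 0.28, adjusted p = 5.17e-05), and -2.31 without the library that stood apart. On log2(TPM + 1), which compresses scarce transcripts, limma gave -0.72, and the fall was then under the fold-change limit.

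ENSRNOT00000039247, of 1215 bases, had the next largest fall. At 8 h, it was at 4.74, 2.36, 4.66, 5.67, and 4.56 CPM with vehicle and at 2.25, 1.94, 1.42, 2.13, and 2.19 CPM with the low dose. At 24 h, it was at 2.70, 5.52, 2.30, 3.995, and 4.76 CPM with vehicle and at 0.635, 0.666, 0.278, 0.566, and 0.468 CPM with the low dose. The groups were close at 8 h, where the lowest vehicle value was 2.36 and the highest low-dose value 2.25 CPM, and far apart at 24 h. The pooled log2 fold change was -1.92 (SE 0.29, adjusted p = 0.000432), and -1.78 without the library that stood apart.

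**Figure D3:**
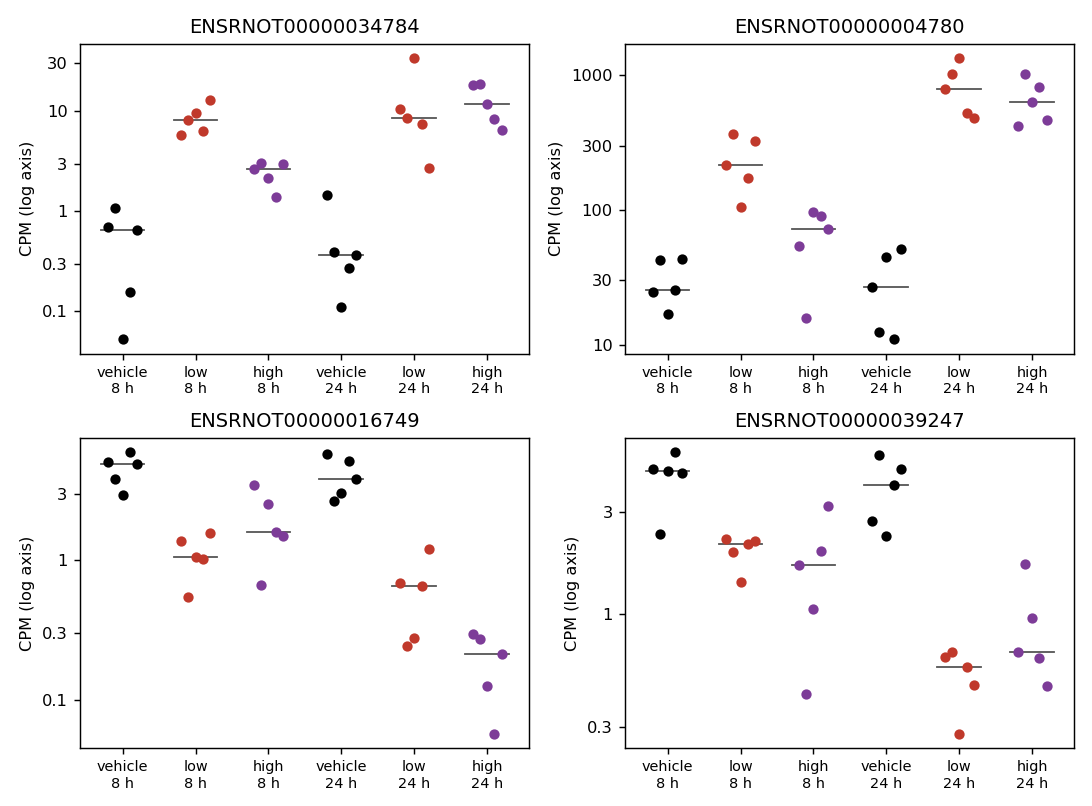
CPM (log axis) of the 4 named transcripts in each kidney sample given vehicle (black), the low dose (red), or the high dose (purple), with the group median as a line and libraries scaled over all 30 kidney samples. Low-dose and vehicle samples do not overlap at either time in any panel.

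Complete separation of this kind was not limited to the named transcripts. At both times, every low-dose sample was above every vehicle sample in 29 of the 61 rises, and every one was below in 26 of the 70 falls. Over all transcripts tested, whether called or not, such separation occurred in 89 upward (0.433%) and 58 downward (0.282%). The called transcripts were chosen for this difference, so these counts describe how even the response was among rats and are no further evidence for it. Without the library that stood apart, they were 27 of 51 rises and 26 of 57 falls, beside 81 upward and 70 downward over all those tested.

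The response of each rat was summarized as the median deviation of the called transcripts from the vehicle mean of the same time, on log2(CPM + 0.5), over 61 rises and 69 falls. At 8 h, the 5 low-dose rats lay between 1.05 and 1.37 for the rises and between -0.60 and -1.07 for the falls. At 24 h, they lay between 0.65 and 1.72 for the rises and between -0.99 and -1.76 for the falls. Both ranges at 24 h were the same without the library that stood apart. Vehicle rats lay between -0.12 and 0.08 for the rises and between -0.20 and 0.31 for the falls. The low-dose rats thus spread more widely at 24 h than at 8 h, and no low-dose rat was within the vehicle range, which the choice of the transcripts on these samples favours.

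Whether the response differed between 8 and 24 h was examined with a fit that estimated the low-dose effect at each time. At 8 h, 71 transcripts were called (0.346%), 50 that rose (0.243%) and 21 that fell (0.102%). At 24 h, 86 were called (0.419%), 35 that rose (0.17%) and 51 that fell (0.248%). The 17 transcripts called at both times, 15 rises and 2 falls, were 23.9% of the 8 h list and 19.8% of the 24 h list. Without replicate 3 of the low-dose 24 h group, 66 were called at 8 h, 65 at 24 h (23 rises, 42 falls), and 16 at both. Other libraries moved these counts further, since 37 to 46 were called at 8 h without low-dose replicate 1, 3, or 5 or vehicle replicate 4 or 5 of that time, and 55 at 24 h without vehicle replicate 1.

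The short overlap did not mean opposite effects at the other time. Of the 71 transcripts called at 8 h, 67 had the same sign at 24 h, and of the 86 called at 24 h, all 86 had the same sign at 8 h, beside 64.8% of all those tested. These times have separate low-dose and vehicle samples, although they share the estimate of the spread and the library-number term. Without the library that stood apart, the counts were 62 of 66 and 64 of 65, beside 65.4% of all those tested. The 35 rises called at 24 h had a median of 1.80 at that time and 1.22 at 8 h. The 51 falls called at 24 h had a median of -1.51 at that time and -0.60 at 8 h.

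A test of the difference itself, as a dose-by-time interaction, called 0 of the 20549 transcripts by the quasi-likelihood test of edgeR at an adjusted p of no more than 0.01, with 1258 at an unadjusted p under 0.05, while DESeq2 called 75. The smallest adjusted p by edgeR was 0.0439. With all libraries in, all 4 named transcripts had a larger absolute effect at 24 h, and none passed the test of the difference. The log2 fold change of ENSRNOT00000004780 was 2.95 (SE 0.46) at 8 h and 4.90 (SE 0.51) at 24 h (interaction adjusted p = 0.549), and that of ENSRNOT00000039247 was -1.09 (SE 0.26) at 8 h and -2.85 (SE 0.28) at 24 h (interaction adjusted p = 0.201). That of ENSRNOT00000034784 was 4.02 (SE 0.74) and 4.56 (SE 0.76), and that of ENSRNOT00000016749 was -2.06 (SE 0.37) and -2.81 (SE 0.39). Without the library that stood apart, ENSRNOT00000034784 was at 4.03 at 8 h and 3.75 at 24 h, so its order depended on that library. The other named transcripts kept the larger absolute effect at 24 h. Among the called transcripts, the absolute effect was larger at 24 h for 57 of the 70 falls and for 31 of the 61 rises, beside 10514 of the 20549 tested. The median fall was -1.0 at 8 h and -1.5 at 24 h, and the median rise was 1.35 and 1.31. The 24 h medians of the same falls and rises were -1.52 and 1.26 without the library that stood apart.

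**Figure D4:**
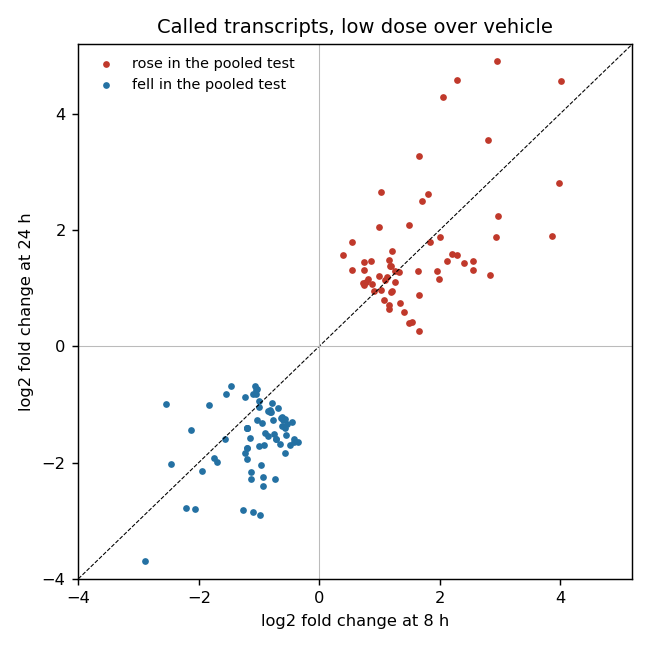
Log2 fold change of low dose over vehicle at 8 h (x axis) and at 24 h (y axis) for the 131 called transcripts, with the line of equal effects dashed. Rises (red) scatter around the line, and 57 of the 70 falls (blue) lie below it, with the larger change at 24 h.

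The calls at a single time were fewer with the samples of that time alone. With the samples of 1 time alone, 58 transcripts were called at 8 h and 4 at 24 h, all 4 of them rises. Without replicate 3 of the low-dose group, the 24 h samples alone gave 0 calls by edgeR, with 2085 at an unadjusted p under 0.05. DESeq2 called 174 transcripts in the 24 h samples alone, and 138 without that replicate.

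The low-dose response was next set beside that of the 10 kidney samples of rats given the high dose (100 mg/kg), which were compared with the same vehicle samples. The high dose called 890 of 20748 transcripts against vehicle (4.29%). The 61 rises of the low dose had a median log2 fold change of 1.74 with the high dose, and the 69 falls that could be tested had a median of -1.43, beside a median of -0.01 over all those tested. The same vehicle samples enter both comparisons and the lists were chosen on the low-dose one, which favours values of the same sign, so the medians are set side by side only. Without the library that stood apart, they were 1.82 and -1.47. A direct comparison of the 2 doses in all 30 kidney samples called 180 transcripts (0.868%), 140 higher (0.675%) and 40 lower (0.193%) with the high dose.

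Among the transcripts called with the low dose, the doses differed for 15 of the 61 rises, of which 12 were higher and 3 lower with the high dose. Those 12 were between 0.97 and 2.77 higher with the high dose on the log2 scale, and the 3 differed by -1.10 to -1.67. The doses differed for 0 of the 69 falls by edgeR, with 19 of them at an unadjusted p under 0.05, and for 1 by DESeq2. Their median difference of high minus low dose was -0.15 over both times. By time, the group median of the per-rat deviation of the falls was -0.82 with the low and -0.71 with the high dose at 8 h. It was -1.19 and -1.71 at 24 h. For the rises, it was 1.26 with the low and 0.89 with the high dose at 8 h, and 1.17 and 1.765 at 24 h. Whether the dose difference changed with time was not tested. Over the 20440 transcripts tested in both fits, 135 were called higher and 40 lower with the high dose, and 3661 had an unadjusted p under 0.05. The lists were chosen on the low-dose effect, which enters the difference between the doses, so these counts and medians are given as a description. Without replicate 3 of the low-dose 24 h group, the doses differed for 16 of the called transcripts.

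The 2 named rises showed a dose order at 8 h that was not that of the injected amounts. ENSRNOT00000034784 was between 5.78 and 13 CPM in the low-dose samples at 8 h and between 1.38 and 3.05 CPM in the high-dose samples. ENSRNOT00000004780 was between 105.2 and 363 CPM with the low dose at 8 h and between 15.8 and 96.1 CPM with the high dose. Neither pair of groups overlapped at 8 h, and in both transcripts the doses overlapped at 24 h. Over both times, the difference between the doses did not pass for either (high minus low -0.71, SE 0.45, adjusted p = 0.446, and -0.87, SE 0.45, adjusted p = 0.322). These transcripts were chosen for their low-dose rise, so the order at 8 h is given as a description. Replicates 2, 3, and 4 of the high-dose 8 h group were numbered above 90, against replicate 5 of the low-dose 8 h group. The CPM values and the per-rat medians are not adjusted for library number.

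In the liver, the low dose called 1637 of 19847 transcripts (8.25%) in 18 samples, 2 liver libraries with nearly identical counts having been left out. In the heart, it called 0 of 21120 by edgeR, with 1572 at an unadjusted p under 0.05. In each of these organs, only 1 library was numbered above 90, a low-dose 8 h sample, which the library-number term fitted alone. That library therefore adds nothing to the dose effect there or in the tests between organs below. Of the 61 transcripts that rose in the kidney, 60 were tested in the liver, and 37 of them (61.7%) rose there too and 0 fell, against 4.70% that rose in the liver among the kidney-tested transcripts. Of the 70 that fell in the kidney, 39 were tested in the liver, and 9 (23.1%) fell there and 0 rose, against 3.40% that fell. For the lists called without the kidney library that stood apart, the counts were 32 of 50 rises and 9 of 32 falls, with 0 in the other direction. The median liver effect was 1.41 for the kidney rises and -0.19 for the kidney falls. The median heart effect was 0.11 over the 53 rises and -0.02 over the 39 falls tested there.

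The difference between organs was tested as an organ-by-dose interaction. For kidney against liver, 1631 of 23160 transcripts differed (7.04%), and for kidney against heart, 188 of 23707 (0.793%). Among the called kidney transcripts, the effect differed from that in the liver for 21 of the 61 rises, 13 of them larger in the kidney and 8 larger in the liver, and for 10 of the 70 falls. It differed from that in the heart for 28 rises and 12 falls. Without the library that stood apart, these counts were 20 and 8 against the liver and 27 and 8 against the heart. The lists were chosen on the kidney effect, which enters these differences, so their excess over the background is not read as a result. The organs come from the same rats, which the fit does not model.

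The named transcripts differed in this respect. They were chosen for their kidney effect, which enters these tests and favours a pass, so the values are given as a description. ENSRNOT00000034784, which rose in the kidney, had a liver effect of -0.33 (SE 0.13) that did not pass (adjusted p = 0.0555). Its mean TPM in the liver was higher with the low dose (260.2 ± 54.4, SD, n = 9) than with vehicle (223 ± 59.6), so the sign of the liver effect depended on the scale. The liver effect was lower than the kidney effect by 4.62 on the log2 scale (SE 0.51, adjusted p = 2.31e-07). Without the kidney library that stood apart, the difference of liver minus kidney was -4.22 (adjusted p = 2.88e-08). ENSRNOT00000004780 had a liver effect of 1.08 (SE 0.36, adjusted p = 0.0259), lower than the kidney effect by 2.85 (SE 0.57, adjusted p = 0.000743), and its mean in the low-dose liver was 1130 ± 579 TPM (SD, n = 9). Its liver level at 24 h was between 1174 and 1809 TPM with the low dose and between 178 and 429 TPM with vehicle. The liver groups overlapped at 8 h (384 to 766 TPM against 69.4 to 679 TPM), and the liver effect given here pools both times. Without that kidney library, its difference of liver minus kidney was -2.68 (adjusted p = 0.000883). ENSRNOT00000016749 differed between kidney and heart by 2.94 (SE 0.64, adjusted p = 0.00791), but in the heart it was at a mean of 0.0136 TPM with vehicle and the 20 heart libraries held 0 to 5 counts each, so the fold change there is not interpretable. Without that kidney library, its difference between kidney and heart did not pass (adjusted p = 0.0106). ENSRNOT00000039247 was at 4.41 ± 3.02 TPM (SD, n = 10) in the vehicle heart and at 3.75 ± 1.25 TPM (SD, n = 10) in the vehicle kidney, and its low-dose effect was -0.08 (SE 0.34) in the heart. The difference between kidney and heart did not pass for it (adjusted p = 0.0258, and 0.0445 without that kidney library).

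**Figure D5:**
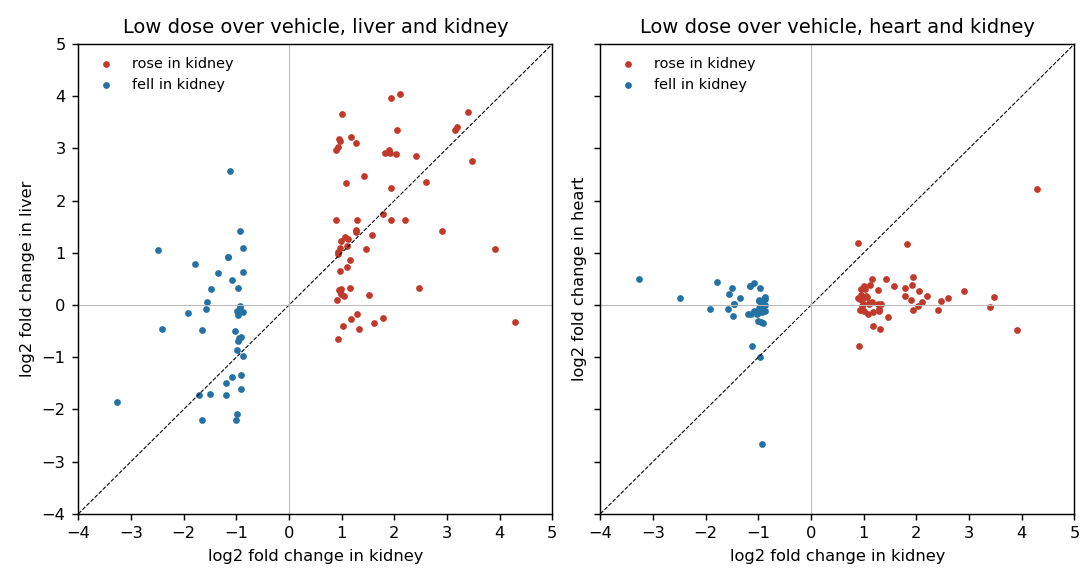
Log2 fold change of low dose over vehicle in the kidney (x axis) and in the liver or heart (y axis) for the called kidney transcripts tested in that organ, with the line of equal effects dashed. In the liver, 37 of the 60 rises tested were called as rises and 9 of the 39 falls tested as falls, whereas the heart effects of the 53 rises and 39 falls have medians of 0.11 and -0.02.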

How the data were processed

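RNA-seq was analysed for 20 kidney samples, 10 low dose and 10 vehicle, with 10 high-dose kidney samples and the low-dose and vehicle samples of liver (18) and heart (20) for comparison. Samples were grouped by their labels. The samples and lists were chosen with earlier results of these data known. RNA was poly-A enriched, and read pairs were pseudo-aligned by the authors with kallisto 0.42.2 (version and the build Rnor_6.0 per the submitters' processing notes). For each target in each sample, the authors deposited an estimated count, which need not be whole and is not normalized, and its TPM, which is scaled by effective length and by library.

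Estimated counts of transcripts were rounded to whole numbers and tested in R 4.3.3 with edgeR 4.0.16, with low counts removed by filterByExpr, libraries scaled by TMM, and the quasi-likelihood test with Benjamini-Hochberg adjustment over all transcripts tested. Covariates were time and library number above 90 or not. Calls needed an adjusted p of up to 0.01 together with a change of 0.60 or more, up or down, in natural-log units. Interactions were called by adjusted p alone. The scripts were checked on simulated counts. CPM values use the TMM library sizes. The exact permutation tests permuted doses within times over 63504 arrangements. A pair of liver libraries with nearly identical counts was left out, and no such pair was found in the kidney.

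By the naming rule, the 2 largest rises and 2 largest falls are named among called transcripts that averaged 2 CPM or more and whose low-dose and vehicle samples did not overlap at either time. The lists of organ-restricted transcripts and the results without 1 low-dose library were added after the data had been seen. No table used here pairs transcripts with genes, so gene and marker lists, sums per gene, and sequences were not analysed here. Alternatives were DESeq2 1.42.0, limma 3.58.1 on log2(TPM) with 1 or 0.1 added to the TPM, other scaling, filters, covariates, and samples, and leaving out each sample in turn. Python 3.11.15, numpy 2.4.6, pandas 2.3.3, and matplotlib 3.10.9 were used for tables and plots.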

Additional observations from a re-analysis of the deposited data

Results flagged for a closer look

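In 40 groups of 5 values tested for a sample far from the others, 6 had one, and chance alone flags about 1 group in 20. Replicate 3 of the low-dose 24 h group stood apart in the summed liver-restricted transcripts, at 14994 TPM against 224 to 935 TPM in the other 4, and in ENSRNOT00000034784, at 33.9 CPM against 2.67 to 10.6 CPM. Replicate 1 of the vehicle 24 h group stood apart in the same 2 measures, at 880 TPM against 171 to 356 TPM and at 1.47 CPM against 0.110 to 0.391 CPM. In the summed heart-restricted transcripts, replicate 2 of the vehicle 8 h group was at 87.8 TPM against 31.5 to 37.8 TPM, and replicate 5 of the low-dose 8 h group was at 70.7 TPM against 31.3 to 35.96 TPM. Both of these are libraries numbered above 90.

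With all kidney libraries in, the low-dose effect of 3 of the 4 named transcripts passed the test of a difference between organs, but for 1 of these, ENSRNOT00000016749, the heart libraries held 0 to 5 counts each. All 4 were chosen for their kidney effect, which enters that test and favours a pass. Without replicate 3 of the low-dose 24 h group, ENSRNOT00000016749 did not pass that test (adjusted p = 0.0106). The liver effect was below the kidney effect for ENSRNOT00000034784 (difference -4.62 on the log2 scale) and for ENSRNOT00000004780 (-2.85). The heart effect was below the kidney effect for ENSRNOT00000004780 (-4.34, adjusted p = 0.000991), and above it for ENSRNOT00000016749 (2.94), where the heart holds too few counts for a fold change. Over all transcripts, 1631 differed between kidney and liver and 188 between kidney and heart by the same test.

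The genomic intervals, which the comparisons above do not use, also held a difference between the low dose and vehicle. In a fit over all targets, 110 of the 13977 intervals tested were called, 20 that rose and 90 that fell, and 89 (20 that rose and 69 that fell) without replicate 3 of the low-dose 24 h group. The transcripts in that fit gave 75 rises and 58 falls, in place of 61 and 70 without the intervals. The share of all counts on intervals averaged 10.6% with the low dose and 13.8% with vehicle, a difference that did not pass as given above. How far this share bears on the 90 falls was not tested. The largest rise, named after its value was seen, was on chromosome 15 from 103957565 to 103977564 (Rnor_6.0), with a mean of 0.634 CPM with vehicle and 8.84 CPM with the low dose (log2 fold change 3.75, SE 0.28, adjusted p = 7.78e-07). The largest fall was on chromosome 4 from 7785694 to 7805693, from 1.70 CPM to 0.266 CPM (log2 fold change -2.64, SE 0.31, adjusted p = 6.41e-05). What the annotation holds at these positions was not analysed here.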

How the results depend on the processing

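The pooled count of 131 transcripts (61 rises, 70 falls) was 223 (97 rises, 126 falls) with DESeq2, 694 (417, 277) with no limit on the fold change, 58 at 8 h alone (14 falls), and 4 at 24 h alone (4 rises, 0 falls). At 24 h alone, it was 174 with DESeq2 and 0 by edgeR without replicate 3 of the low-dose group. With limma, there were 24 falls on log2(TPM + 1), and 118 rises and 45 falls on log2(TPM + 0.1). It stayed within 1.5 times of 131 under the other filters, scalings, covariates, and sample sets listed above. Leaving out each of 20 samples gave 95 to 146 calls, 47 to 76 rises, and 46 to 82 falls. The fewest falls came without replicate 2 of the low-dose 24 h group. DESeq2 called 233 transcripts at 8 h and 301 at 24 h, against 71 and 86. The 8 h count ranged from 37 to 86 with a sample left out, and was under 47 without low-dose replicate 1 (43), 3 (44), or 5 (37) or vehicle replicate 4 (44) or 5 (46) of the 8 h groups. The 24 h count ranged from 55, without vehicle replicate 1 of that time, to 114. The interaction gave 0 to 2 calls with a sample left out and 75 with DESeq2. The doses differed for 306 transcripts with DESeq2, and for 151 to 213 with a sample left out, against 180. Kidney and liver differed for 2538 transcripts with DESeq2 and for 459 with the near-identical liver libraries kept, against 1631, and for 1456 to 1710 with a kidney sample left out, an alternative chosen after seeing the data. Kidney and heart differed for 438 with DESeq2 and for 146 to 260 with a kidney sample left out, against 188. The cause of these shifts was not tested. The interval share of low dose minus vehicle was -3.24 percentage points, and -4.68 (p = 0.0265 by the exact test) in libraries numbered up to 90. The 4 named transcripts kept their direction under all 33 alternatives and lost the call in 1 to 3 of them each, most often at a single time alone. No analysis paired by rat was run. The sample labels hold library numbers but do not state which samples of different organs come from the same rat. The replicate numbers used here only name samples in their order. Depth limits scarce transcripts most, and sums per gene were not run.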
